A study of Mus musculus with 21 samples.

Results

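Immediate early genes are transcribed within minutes of a stimulus without new protein synthesis, and 10 of them are described here in mouse ventral hypothalamus after forced wakefulness. The genes are Fos, Fosb, Junb, Egr1, Egr2, Nr4a1, Npas4, Arc, Dusp1 and Ier2. They were chosen by symbol, and each had a single row among the 21654 genes of the count table.

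In neurons, calcium entry and kinase cascades activate factors already bound near these genes, such as CREB and serum response factor, and the RNA then decays quickly. Several of the products are transcription factors that act on later genes, while others act at synapses or switch the cascade off again. In brain, these genes are widely used as markers of recent neuronal activity, and their RNA is generally higher after waking than after sleep.

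Male C57/BL6 mice, acquired at 12 to 14 weeks of age, ate regular chow (RC) or a high-fat diet (HFD). The RC NoDS and HFD NoDS groups stayed on their diet (no diet switch), the RC → HFD group went from chronic RC to acute HFD, and the HFD → RC group went from chronic HFD to acute RC. All mice were kept awake with unfamiliar objects for 3 hours and killed at ZT6, in the light phase. Punches of the circumventricular hypothalamus from 2 mice were pooled into each polyA RNA-seq library, with 5 libraries for RC NoDS, 6 for RC → HFD, 5 for HFD → RC and 5 for HFD NoDS. No undisturbed mice are among the 4 groups, so the values compare diets among mice that were all kept awake, and induction by wakefulness cannot be told from them. Pooling hides differences between the 2 mice of a library.

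The libraries held 16380781 to 16390598 gene reads each, since all had been re-sampled to a common number. They differed in complexity, measured as the share of 3116 low genes (averaging from 5 up to 50 reads) that had no read in a library. This share was 3.22% ± 2.42 (SD, n = 5) in RC NoDS, 11.9% ± 8.82 (SD, n = 6) in RC → HFD, 16.5% ± 10.3 (SD, n = 5) in HFD → RC and 16.3% ± 9.93 (SD, n = 5) in HFD NoDS. It was highest in HFD NoDS replicate 20 (32.9%) and HFD → RC replicate 17 (31.9%), and lowest in RC NoDS replicate 1 (1.12%). RC NoDS libraries were therefore the most complex on average. The labelled tissue was checked by its markers. All 14 hypothalamic markers were in the table, with Avp the most abundant at a mean of 10476 reads. No neuron, glial, vascular or hypothalamic marker was at 0 in every library. Pmch was the most abundant of 8 lateral hypothalamus and neighbouring region markers. Their summed level in CPM (reads scaled by library total) was 133 ± 28.4 in RC NoDS (SD, n = 5) and 173 ± 43.5 in RC → HFD (SD, n = 6). It was 154 ± 23.6 in HFD → RC and 177 ± 45.8 in HFD NoDS (SD, n = 5 each). The authors used 1 of these genes, Hcrt, in checking their punches.

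Levels between genes were compared as RPKM (reads scaled by exon length and library total), averaged over the 21 libraries. Junb, a partner of Fos proteins in the AP-1 factor, had the highest level at 18.0 ± 3.62 (SD, n = 21), followed by Egr1, a zinc-finger factor, at 10.8 ± 1.78 (SD, n = 21). Junb exceeded Egr1, and Egr1 exceeded Nr4a1, in 21 of 21 libraries. Nr4a1 (6.80 ± 1.76), Dusp1 (5.79 ± 1.04), Fos (5.39 ± 1.42) and Arc (4.74 ± 1.25) formed a middle set whose neighbours overlapped (SD, n = 21 each). Nr4a1 exceeded Dusp1 in 14 of 21 libraries, Dusp1 exceeded Fos in 11 and Fos exceeded Arc in 13. Ier2 (3.14 ± 1.59) came next, and Arc exceeded it in 19 libraries. Fosb (1.38 ± 0.545) and Npas4 (1.27 ± 0.474) were not separated, with Fosb the higher in 9 of 21 libraries. Egr2 was lowest at 0.383 ± 0.308 (SD, n = 21). Among the 12768 genes averaging at least 50 reads (the High Filter), Junb stood at the 70.9th percentile of level, Egr1 at the 55.8th, Fos at the 34.4th and Npas4 at the 5.32nd.

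Differences between groups were tested with edgeR's quasi-likelihood test over all High Filter genes, with Benjamini-Hochberg adjustment, and a gene was called at an adjusted p under 0.15. Of the 10 genes, 9 passed the High Filter. Egr2 averaged 21.3 reads and was fitted with the genes averaging at least 5 reads (the Low Filter). In bulk tissue, fewer cells of a type and less RNA per cell cannot be told apart.

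**Figure D1:**
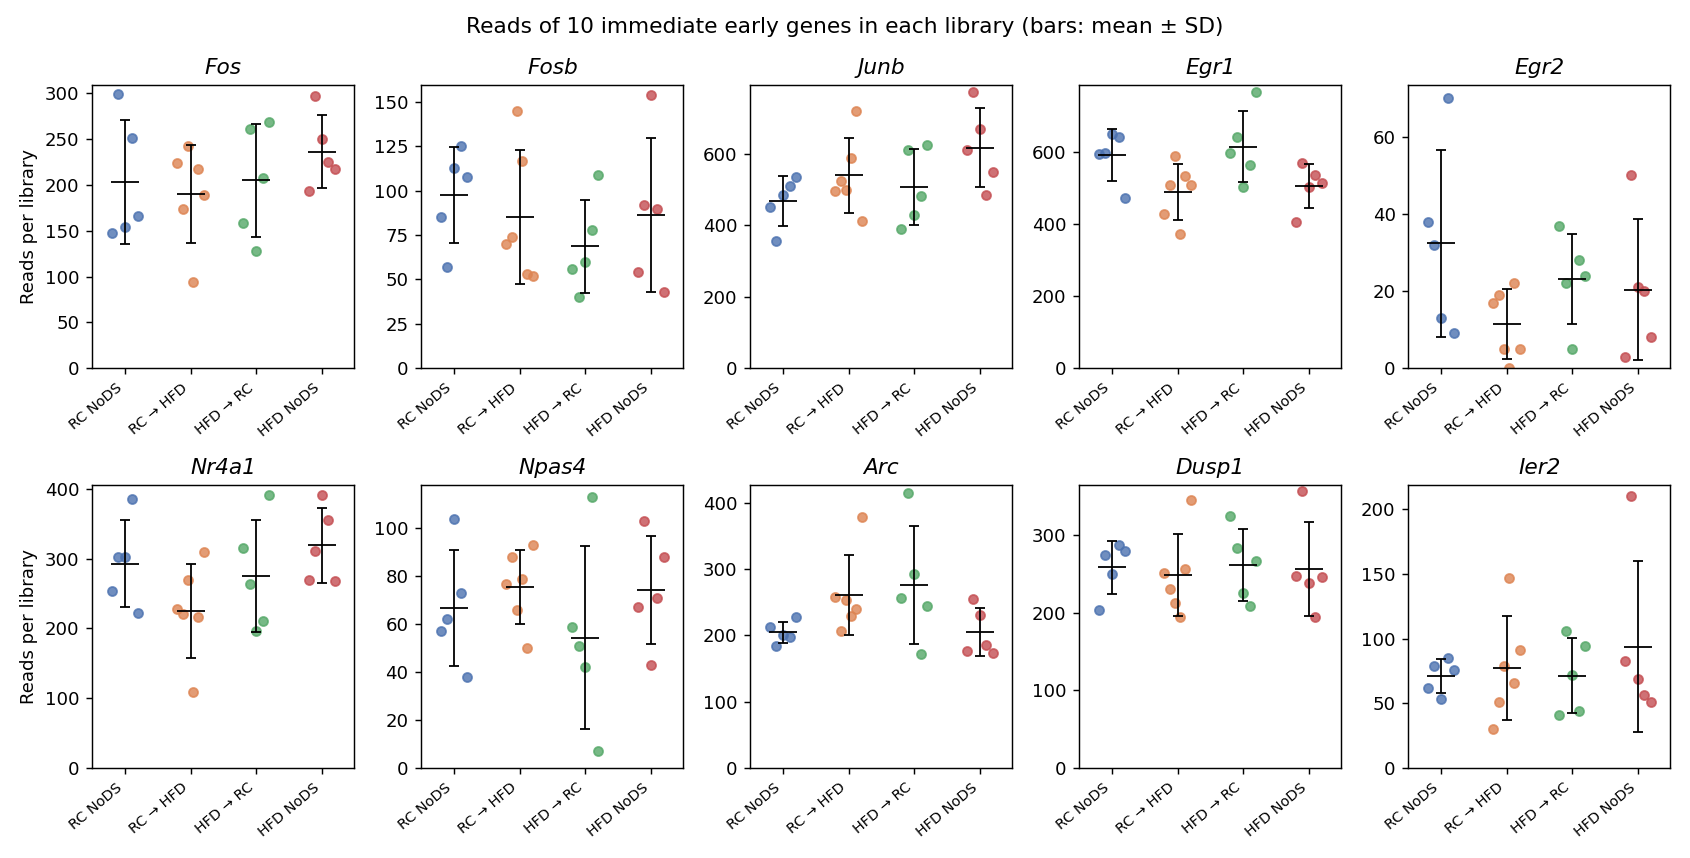
Reads per library (vertical axis, linear, from 0) of each of the 10 genes in the 4 diet groups (horizontal axis); points are libraries and bars are the mean ± SD. The groups overlap for every gene, and single libraries stand out, such as HFD NoDS replicate 20 for Ier2 (210 reads) and HFD → RC replicate 17 for Npas4 (7 reads).

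None of the 9 genes tested was called by edgeR in any of the 10 comparisons. Between HFD NoDS and RC NoDS, 0 of 9 were called, against 0.0783% of all genes, and 1 (Junb) had an unadjusted p under 0.05, against 7.41%. Between HFD → RC and RC → HFD, the weight-matched groups, 0 were called against 0.00783%, and 1 (Egr1) was under 0.05 against 5.35%. Between RC → HFD and RC NoDS, 0 were called against 0.0392%, and 0 were under 0.05 against 6.51%. Between HFD → RC and HFD NoDS, 0 were called against 0.0705%, and 2 (Arc and Egr1) were under 0.05 against 7.93%. Between HFD → RC and RC NoDS, 0 were called against 0.282%, and 1 (Arc) was under 0.05 against 8.1%. Between HFD NoDS and RC → HFD, 0 were called against 0.0157%, and 1 (Nr4a1) was under 0.05 against 7.49%. For current diet (both groups then on HFD minus both then on RC), 0 were called against 0.047%, and 2 (Egr1 and Junb) were under 0.05 against 5.22%. For earlier diet, 0 were called against 0.0705%, and 0 were under 0.05 against 7.27%. For the switch (both switched groups minus both unswitched groups), 0 were called against 0.0313%, and 1 (Arc) was under 0.05 against 8.84%. Over all 4 groups, 0 were called against 0.149%, and 2 (Arc and Egr1) were under 0.05 against 7.97%. With so few genes a count of 1 or 2 is not a result about them. DESeq2 and limma-voom on the same libraries also called 0 of the 9 in each comparison, with 0 to 2 under 0.05. For RC → HFD minus RC NoDS, DESeq2 gave none of the 9 an adjusted p, so it could call none there.

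The signs of the fitted differences varied between comparisons and with library complexity. In HFD NoDS minus RC NoDS, 7 of 9 fitted differences were above 0 with a median of 0.14 on the log2 scale. With the share of low genes at 0 as a covariate, however, 3 of 9 were above 0 with a median of -0.18. That share ran from 1.12% to 7.22% in RC NoDS and from 7.70% to 32.9% in HFD NoDS, without overlap. Diet group and complexity therefore cannot be told apart for any gene in this comparison. In HFD → RC minus RC → HFD, 5 were above 0 (median 0.07), and in HFD → RC minus HFD NoDS 3 were (median -0.21, the farthest from 0). RC → HFD minus RC NoDS had 4 above 0 (median -0.03), HFD → RC minus RC NoDS 6 (median 0.03) and HFD NoDS minus RC → HFD 7 (median 0.04). For current diet 5 were above 0 (median 0.06), for earlier diet 7 (median 0.06) and for the switch 3 (median -0.12). The median over all genes lay between -0.00115 and 0.00645 in these 9 comparisons. With the covariate, 1 to 4 of the 9 genes were above 0 in each comparison, and their medians ran from -0.22 to -0.00435.

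**Figure D2:**
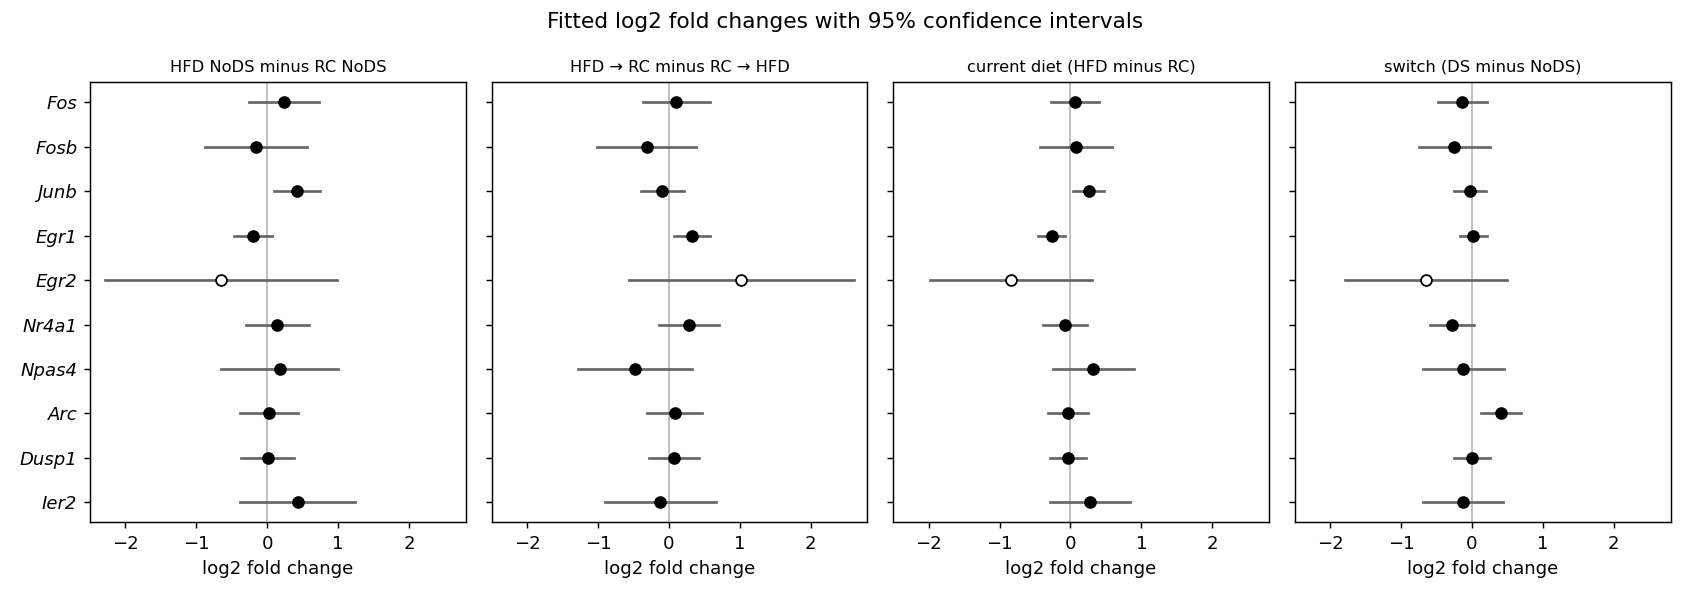
Fitted log2 fold changes (horizontal axis) of the 10 genes (vertical axis) in 4 comparisons, with 95% confidence intervals as lines; filled points are from the High Filter fit and the open point (Egr2) from the Low Filter fit. Intervals that miss 0 are those of Junb and Egr1 for current diet, Junb for HFD NoDS minus RC NoDS, Egr1 for HFD → RC minus RC → HFD and Arc for the switch, and none of these passed the adjusted threshold.

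The AP-1 genes are taken first. Fos, whose protein pairs with Jun proteins to form AP-1, had 148, 299, 154, 251 and 166 reads in the RC NoDS libraries, and 193, 297, 250, 225 and 217 in the HFD NoDS libraries. HFD → RC libraries had 159, 261, 128, 208 and 269 reads, and RC → HFD libraries ran from 94 through a median of 203 to 243. The groups overlapped throughout, and the lowest value of all was RC → HFD replicate 10. By edgeR the difference of HFD NoDS from RC NoDS was 0.23 on the log2 scale (SE 0.24, 95% interval -0.26 to 0.73, adjusted p = 0.809). With complexity in the fit it was 0.0105 (SE 0.27), without HFD NoDS replicate 20 it was 0.13, and without RC NoDS replicate 2 it was 0.41. HFD → RC minus RC → HFD was 0.11 (SE 0.23, 95% interval -0.37 to 0.58).

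Junb had 453, 356, 484, 511 and 537 reads in RC NoDS and 612, 773, 671, 485 and 550 in HFD NoDS. HFD → RC libraries had 390, 611, 430, 482 and 625 reads, and RC → HFD libraries ran from 413 through a median of 511 to 721. All but 1 of the HFD NoDS libraries lay above the highest RC NoDS library, yet the groups overlapped. The edgeR difference of HFD NoDS from RC NoDS was 0.42 (SE 0.16, 95% interval 0.10 to 0.74, unadjusted p = 0.0123, adjusted p = 0.64). Library complexity moved with this difference: with the share of low genes at 0 as a covariate, the difference was 0.16 (SE 0.16). Diet group and complexity cannot be told apart here, since the share did not overlap between these groups. Neuron markers moved against Junb within groups, with r = -0.66 (n = 21). Their summed level was 3046 ± 191 CPM in RC NoDS (SD, n = 5), 3202 ± 175 in RC → HFD (SD, n = 6), 3153 ± 171 in HFD → RC (SD, n = 5) and 3067 ± 98.9 in HFD NoDS (SD, n = 5). Between HFD NoDS and RC NoDS, edgeR called 0 of 10 neuron markers, with 3 at an unadjusted p under 0.05, all with a difference above 0, but the median log2 difference of the 10 was 0.00511, against 0.00645 over all genes. Snap25 was the most abundant, and none was at 0 in every library. Oligodendrocyte markers, whose sums are given with Arc below, had r = -0.012 with Junb within groups (n = 21), yet 6 of 8 had an unadjusted edgeR p under 0.05 between HFD NoDS and RC NoDS, all with a difference above 0 (median 0.54), and 0 were called. Of 8 microglia markers, with Csf1r the most abundant and none at 0 in every library, 3 had an unadjusted p under 0.05, all above 0 (median 0.24), and 0 were called. Their summed level had r = 0.32 with Junb within groups (n = 21) and was 343 ± 23.2 CPM in RC NoDS (SD, n = 5), 340 ± 18.7 in RC → HFD (SD, n = 6), 377 ± 41.2 in HFD → RC (SD, n = 5) and 397 ± 35.7 in HFD NoDS (SD, n = 5). Of 6 lateral hypothalamus and neighbouring region markers tested, edgeR called 1 for this comparison, against 0.0783% of all genes. That gene, Hcrt, was 2.71 (SE 0.56, adjusted p = 0.0513 by edgeR). It had 75, 70, 94, 28 and 105 reads in RC NoDS and 93, 1051, 823, 187 and 234 in HFD NoDS. The summed level of this marker list had r = -0.34 with Junb within groups (n = 21). The part of these markers in the Junb values was not tested. Fosb, a Fos relative with a long-lived splice form, ranged from 40 reads in HFD → RC replicate 14 to 154 in HFD NoDS replicate 21, and its group means ran from 68.6 ± 26.3 in HFD → RC (SD, n = 5) to 97.6 ± 26.9 in RC NoDS (SD, n = 5).

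Among the zinc-finger factors, Egr1 had 593, 596, 649, 641 and 471 reads in RC NoDS and 596, 640, 503, 563 and 765 in HFD → RC, the groups then eating RC. HFD NoDS libraries had 406, 568, 501, 536 and 513 reads, and RC → HFD libraries ran from 371 through a median of 507.5 to 589. Libraries of mice then eating HFD tended to hold fewer Egr1 reads, but the ranges overlapped. The edgeR difference for current diet was -0.27 (SE 0.09, 95% interval -0.45 to -0.08, unadjusted p = 0.00654, adjusted p = 0.769), which did not pass. HFD → RC minus RC → HFD was 0.33 (SE 0.12, unadjusted p = 0.0147, adjusted p = 0.899 by edgeR). Blood cell markers had fitted differences of the same sign for current diet: 6 of 6 had an unadjusted edgeR p under 0.05 with a difference below 0, and 0 were called. Their summed level in CPM (reads scaled by library total) was 241 ± 32.4 CPM in RC NoDS (SD, n = 5), 107 ± 27.7 in RC → HFD (SD, n = 6), 200 ± 137 in HFD → RC (SD, n = 5) and 157 ± 72.8 in HFD NoDS (SD, n = 5). Single libraries ran from 66.8 to 131 in RC → HFD and from 46.2 to 417 in HFD → RC. Hbb-b1 was the most abundant of them, none was at 0 in every library, and within groups the sum had r = 0.44 with Egr1 (n = 21). For HFD → RC minus RC → HFD, 6 of 6 blood cell markers had an unadjusted edgeR p under 0.05, all above 0 (median 0.91), and 0 were called. In that comparison 6 of 8 oligodendrocyte markers were also under 0.05, all above 0 (median 0.53), and 0 were called. Their sum had r = 0.071 with Egr1 within groups (n = 21). The part of blood and oligodendrocyte RNA in the Egr1 values was not tested. Egr1, at chr18:35020861-35024638 in the mm9 build, overlaps the predicted gene Gm17507 on the opposite strand. The library kit was stranded, but whether counting used strand is not stated, so reads of this pair may not have been told apart.

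Egr2 was sparse, with 38, 32, 13, 70 and 9 reads in RC NoDS, 37, 22, 5, 28 and 24 in HFD → RC, and 3, 50, 21, 20 and 8 in HFD NoDS. RC → HFD ran from 0 through a median of 11 to 22. The groups overlapped, and these differences rest on few reads. RC → HFD minus RC NoDS was -1.48 (SE 0.78, 95% interval -3.07 to 0.10) by edgeR.

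Nr4a1, an orphan nuclear receptor, had 253, 302, 303, 385 and 222 reads in RC NoDS and 270, 311, 391, 355 and 268 in HFD NoDS. HFD → RC libraries had 316, 264, 196, 210 and 392 reads, and RC → HFD libraries ran from 109 through a median of 224 to 309. RC → HFD had the lowest mean, and replicate 10 of that group was again the lowest library, but the ranges overlapped. The edgeR difference of HFD NoDS from RC → HFD was 0.49 (SE 0.21, 95% interval 0.07 to 0.92, unadjusted p = 0.025, adjusted p = 0.61). The blood cell marker sum, given above, was also lowest on average in RC → HFD, where replicate 10 was the lowest library (66.8 CPM), and had r = 0.42 with Nr4a1 within groups (n = 21). Of the 6 blood cell markers, edgeR called 0 between HFD NoDS and RC → HFD, with 1 at an unadjusted p under 0.05. Under 0.05 were also 3 of 9 astrocyte and tanycyte markers (median 0.17) and 3 of 8 microglia markers (median 0.20), all above 0. Of 10 neuron markers, 2 were, both below 0. Of 6 lateral hypothalamus and neighbouring region markers tested, 2 were, both above 0 (median 0.18). In these lists 0 were called. Aldoc was the most abundant astrocyte marker. The astrocyte, microglia and lateral hypothalamus sums had r = 0.0053, 0.21 and 0.24 with Nr4a1 within groups (n = 21 each). The part of these markers in the Nr4a1 values was not tested.

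Npas4, a transcription factor induced selectively by neuronal activity, had 57, 62, 104, 73 and 38 reads in RC NoDS and 67, 103, 43, 71 and 88 in HFD NoDS. HFD → RC libraries had 59, 51, 42, 113 and 7 reads, which span both the highest and the lowest library of all. RC → HFD ran from 50 through a median of 78 to 93. Without HFD → RC replicate 17, the difference of HFD → RC from RC → HFD was -0.19 on the log2 scale, without replicate 16 it was -0.92, and with all libraries -0.47 (SE 0.39 by edgeR). With all libraries in limma-voom it was -0.88. Choroid plexus markers moved against Npas4 within groups, with r = -0.71 (n = 21). Their summed level was 79.9 ± 3.58 CPM in RC NoDS (SD, n = 5), 77.2 ± 6.99 in RC → HFD (SD, n = 6), 69.3 ± 10.5 in HFD → RC (SD, n = 5) and 71.3 ± 4.40 in HFD NoDS (SD, n = 5). It was highest, at 84.5, in HFD → RC replicate 17, the library with the fewest Npas4 reads. Of these 6 markers, 2 passed the High Filter, and between HFD → RC and RC → HFD edgeR called 0, with 1 at an unadjusted p under 0.05. Clic6 was the most abundant, and none was at 0 in every library. The oligodendrocyte and blood cell markers given with Egr1 for this comparison had sums with r = 0.12 and -0.24 with Npas4 within groups (n = 21 each). The part of these markers in the Npas4 values was not tested.

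Arc, a synaptic protein needed for lasting plasticity, had 212, 184, 201, 198 and 227 reads in RC NoDS and 177, 255, 231, 186 and 174 in HFD NoDS. HFD → RC libraries had 256, 415, 293, 172 and 244 reads, and RC → HFD libraries ran from 206 through a median of 247 to 378. Both switched groups had higher means than both unswitched groups, while HFD → RC also held the lowest library of all, so the groups overlapped. The switch difference was 0.41 (SE 0.14, 95% interval 0.13 to 0.69, unadjusted p = 0.00617, adjusted p = 0.332 by edgeR). With HFD → RC replicate 17 and HFD NoDS replicate 20 left out together, an alternative chosen after seeing the data because these libraries were least complex, the switch difference was 0.48 and was called at adjusted p = 0.145 by edgeR, when 191 of 12768 genes (1.5%) were called. Over all alternatives and left-out libraries its adjusted p was 0.145 at the lowest. Oligodendrocyte markers moved with Arc within groups, with r = 0.69 (n = 21) between their summed level and Arc. The sum was 2873 ± 535 CPM in RC NoDS (SD, n = 5), 3301 ± 470 in RC → HFD (SD, n = 6), 5312 ± 2165 in HFD → RC (SD, n = 5) and 4336 ± 1516 in HFD NoDS (SD, n = 5). Its highest library, HFD → RC replicate 14 at 8451, was also the highest for Arc. For the switch, 0 of 8 oligodendrocyte markers were called and 2 had an unadjusted p under 0.05 by edgeR. For HFD → RC minus RC NoDS, where Arc had a difference of 0.46 (adjusted p = 0.554 by edgeR; 0.27 with complexity in the fit, 0.26 without HFD → RC replicate 14), 3 of the 8 were called, all higher in HFD → RC, and 7 had an unadjusted p under 0.05. For HFD → RC minus HFD NoDS, where Arc had a difference of 0.44 (adjusted p = 0.607 by edgeR; 0.24 without HFD → RC replicate 14), 0 of the 8 were called and 0 had an unadjusted p under 0.05. For earlier diet, 2 of the 8 were called. Mbp was the most abundant, and none was at 0 in every library. Of 10 neuron markers, 4 had an unadjusted p under 0.05 for the switch, all with a difference above 0, and 0 were called by edgeR, while their sum had r = -0.23 with Arc within groups (n = 21). The sums of the microglia and hypothalamic markers had r = 0.54 and 0.51 with Arc (n = 21 each). For the switch, 0 of 8 microglia markers had an unadjusted p under 0.05, and of 13 hypothalamic markers tested 4 had, 3 above 0 and 1 below, with 0 called in either list by edgeR. The hypothalamic sum was 2303 ± 579 CPM in RC NoDS (SD, n = 5), 2287 ± 485 in RC → HFD (SD, n = 6), 2066 ± 645 in HFD → RC (SD, n = 5) and 2499 ± 692 in HFD NoDS (SD, n = 5). The part of these markers in the Arc values was not tested.

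Dusp1, a phosphatase that switches MAP kinases off, had close group means of 259 ± 34.1 (SD, n = 5) in RC NoDS, 248 ± 52.9 (SD, n = 6) in RC → HFD, 262 ± 46.5 (SD, n = 5) in HFD → RC and 257 ± 60.3 (SD, n = 5) in HFD NoDS. HFD NoDS minus RC NoDS was 0.01 (SE 0.18), with a 95% interval of -0.36 to 0.38 by edgeR. Ier2, a small nuclear protein, had 62, 79, 53, 85 and 76 reads in RC NoDS and 83, 210, 69, 56 and 51 in HFD NoDS. HFD → RC libraries had 41, 106, 72, 44 and 94 reads, and RC → HFD libraries ran from 30 through a median of 72.5 to 147. A single HFD NoDS library, replicate 20, lifted that group, and it was also the least complex library. HFD NoDS minus RC NoDS was 0.43 (SE 0.40), became -0.12 without that library, and was -0.56 (SE 0.36) with complexity as a covariate in edgeR.

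Library complexity was related to 2 of these genes by a test added after seeing the data. In the edgeR fit with this covariate, the slope per SD of the share (9.51 percentage points) was called for 2 of 9 genes, against 7.75% of all genes, and 3 had an unadjusted p under 0.05, against 18.6%. Ier2 had a slope of 0.58 on the log2 scale (SE 0.13, adjusted p = 0.058 by edgeR) and Junb a slope of 0.18 (SE 0.06, adjusted p = 0.107 by edgeR). Both were higher in less complex libraries.

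Libraries of a single group differed more than the median gene for each of the 9 genes but Egr1. The coefficient of variation within groups was 53.3% for Ier2, 40.9% for Fosb, 38.2% for Npas4, 27.1% for Fos, 24.2% for Arc and for Nr4a1, 19.4% for Dusp1, 18.7% for Junb and 14.3% for Egr1. The median over all High Filter genes was 14.9%. By edgeR's dispersion, Ier2 stood at the 97.5th percentile of High Filter genes, Npas4 at the 97.4th, Fosb at the 95.4th, Fos at the 83.5th and Egr1 at the 47.8th. Sampling of reads alone would give 11.3% for Ier2 and 4.28% for Egr1. These percentiles were not matched on level.

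**Figure D3:**
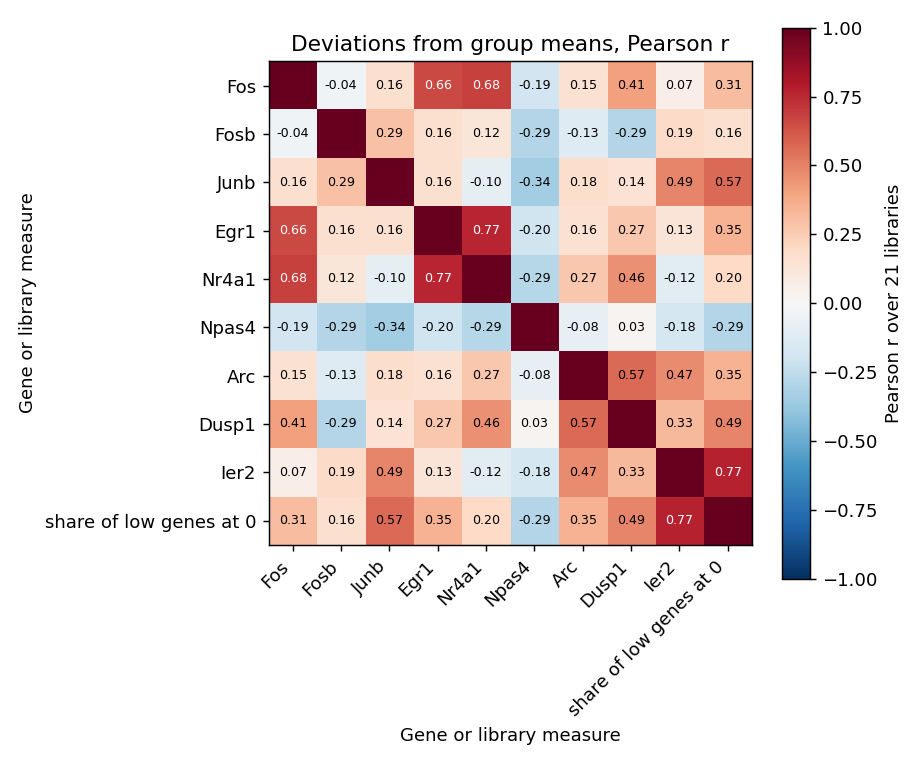
Pearson r over 21 libraries between the deviations of each pair of genes from their group means (log2 CPM), with the share of low genes at 0 as the last row and column; the colour scale runs from -1 to 1. Among pairs of genes the 3 highest values are those of Fos, Egr1 and Nr4a1, and Ier2 (0.77) and Junb (0.57) have the highest r with the share of low genes at 0.

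Within groups, Fos, Egr1 and Nr4a1 were high in the same libraries. Egr1 and Nr4a1 had r = 0.77 (rho 0.68, n = 21), Fos and Nr4a1 r = 0.68 (rho 0.55, n = 21) and Fos and Egr1 r = 0.66 (rho 0.58, n = 21). Without the 2 libraries farthest from the median of the first gene named these were 0.65, 0.43 and 0.47, and without the 2 farthest for the second 0.64, 0.47 and 0.53. Arc and Dusp1 had r = 0.57 (rho 0.41, n = 21), which was 0.55 without the 2 libraries farthest for Arc and 0.33 without the 2 farthest for Dusp1. Of the 36 pairs of genes, 4 (11.1%) had r above 0.5, against 5.12% of all pairs of High Filter genes, and 12 were below 0. Npas4 had r below 0 with all but Dusp1. Without HFD → RC replicates 16 and 17 its r was -0.23 with Fosb and with Junb and -0.0541 with Fos, but 0.28 with Egr1, 0.12 with Nr4a1, 0.11 with Arc and 0.0939 with Ier2. The libraries share their 21 pools and their complexity, and the 3 highest values were 0.76, 0.67 and 0.62 after complexity was taken out.

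The 8 other genes most like the mean deviation of the 9 were Kdm5c (r = 0.80, rho 0.76), Chkb (0.80, rho 0.74), Nagpa (0.79, rho 0.76), Klf5 (0.79, rho 0.74), Fam123a (0.78, rho 0.84), Yy1 (0.78, rho 0.74), 2410004B18Rik (0.77, rho 0.65) and Ssh1 (0.77, rho 0.69), over 21 libraries and among 12759 genes ranked. That mean itself had r = 0.66 with the share of low genes at 0.

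Other genes of the same response were counted from fixed lists. Of 30 other inducible transcription factors, 28 were tested and 0 were called in any comparison by edgeR, against 0.00783% to 0.282% of all genes. From 1 to 6 had an unadjusted p under 0.05, against 5.22% to 8.84% of all genes, and the 6 were over all 4 groups, against 7.97%. Atf3, a stress-inducible factor, had 41, 20, 20, 50 and 30 reads in RC NoDS and 100, 52, 36, 166 and 105 in HFD NoDS. All but 1 of the HFD NoDS libraries lay above the highest RC NoDS library. The difference was 1.52 (SE 0.42, adjusted p = 0.607 by edgeR). Nr4a3, a relative of Nr4a1, was 0.64 (SE 0.19, adjusted p = 0.462 by edgeR) for HFD NoDS minus RC → HFD, and Nfil3 was 0.46 (SE 0.14, adjusted p = 0.482).

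Of 33 activity-induced effectors, 29 were tested and 0 were called in any comparison by edgeR, with 0 to 6 at an unadjusted p under 0.05. The 6 were for the switch, against 8.84% of all genes. Bdnf, a secreted neurotrophin, had 252, 279, 286, 240 and 240 reads in RC NoDS and 341, 421, 472, 352 and 328 in HFD → RC. Every HFD → RC library lay above every RC NoDS library. The difference was 0.59 (SE 0.16, adjusted p = 0.17 by edgeR), which did not pass. Gadd45b was -1.06 (SE 0.32, adjusted p = 0.45) for HFD → RC minus HFD NoDS, and Nptx1, a synaptic pentraxin, was 0.27 (SE 0.09, adjusted p = 0.287) for the switch, both by edgeR.

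Of 16 MAP kinase phosphatases and feedback genes, 14 were tested, and of 26 upstream kinases and factors, 26 were tested, with 0 called in either list by edgeR and 0 to 2 and 1 to 4 at an unadjusted p under 0.05, against 5.22% to 8.84% of all genes. Spry4, a feedback inhibitor of receptor kinases, was -0.35 for current diet (SE 0.11, adjusted p = 0.769 by edgeR). Dusp3 was 0.12 (SE 0.04, adjusted p = 0.577) and Dusp10 was 0.39 (SE 0.15, adjusted p = 0.622) for earlier diet. Camk4, a calcium-dependent kinase, was 0.25 (SE 0.09, adjusted p = 0.332) and Camk2b 0.11 (SE 0.04, adjusted p = 0.461) for the switch, all by edgeR. Hdac4, a histone deacetylase, is the symbol of 2 genes in the table. The one averaging 319 reads had the smallest unadjusted p of this list over all 4 groups (0.0434) and was -0.41 (SE 0.14, adjusted p = 0.876 by edgeR) for HFD → RC minus RC → HFD and -0.11 (SE 0.10) for the switch. The other, averaging 544 reads, was -0.13 (SE 0.18) and 0.00341 (SE 0.13) for these comparisons.

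In the same libraries, edgeR called 4 of 13 hypothalamic markers between HFD NoDS and RC NoDS, against 0.0783% of all genes. Of these, 2 were higher and 2 lower. Between HFD → RC and RC → HFD it called 1 of 13 (Npy), against 0.00783%. The paper had already reported the 4 genes as differing between HFD NoDS and RC NoDS in these libraries, so their calls are not a separate result. Of the 4, Trh was 1.79 and Cartpt 0.89 for HFD NoDS minus RC NoDS, and Agrp was -0.97. Npy was -1.26 (SE 0.16, adjusted p = 7.79e-05 by edgeR) for HFD NoDS minus RC NoDS, with 5015, 4378, 4258, 5713 and 4745 reads in RC NoDS and 1639, 1551, 2103, 2638 and 2006 in HFD NoDS, with no overlap between them.

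In the mouse NCBIM37 (mm9) build, Fosb lies at chr7:19888070-19895394, Ier2 at chr8:87185230-87186751, Junb at chr8:87500811-87502617 and Egr2 at chr10:66998223-67004936. Fos lies at chr12:86814840-86818223, Arc at chr15:74499513-74503000, Nr4a1 at chr15:101097277-101105223, Dusp1 at chr17:26642535-26645464 and Npas4 at chr19:4984355-4989971. Ier2 and Junb are the only pair of these genes on 1 chromosome within a megabase, and their within-group r was 0.49 (n = 21), or 0.0942 after complexity, with which both moved, was taken out.

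RefSeq promoters (GRCm38.p6, 250 bases before to 50 after a start) were matched for 7 of the 10 genes, namely Fosb, Junb, Egr2, Fos, Nr4a1, Dusp1 and Npas4, but not for Arc, Ier2 and Egr1. The half-site TGACG, the core of the cAMP response element, was found on either strand in at least 1 promoter of 7 of 7, and likewise in 23.0% of all 27025 genes with a promoter. The full site TGACGTCA, which contains it, was in Dusp1 and in 2.03% of all these genes. The letters GCGNGGGCG were in Fosb and Nr4a1 and in 6.27% of genes, TATAAA in Fos and Junb and in 15.7%, the CArG box in Egr2 and in 1.81%, and TGANTCA in 0 of 7 and in 8.97%. The stretches before the start of Fos and Nr4a1, which were high in the same libraries, and of Dusp1, with the full site, are shown with each TGACG on either strand in capitals. They are at chr12:85473750-85473889 (plus strand), chr15:101266606-101266845 (plus strand) and chr17:26508473-26508672 (minus strand).
Fos: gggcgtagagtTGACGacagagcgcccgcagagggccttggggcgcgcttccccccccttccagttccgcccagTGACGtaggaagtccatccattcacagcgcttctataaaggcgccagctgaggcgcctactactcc
Nr4a1: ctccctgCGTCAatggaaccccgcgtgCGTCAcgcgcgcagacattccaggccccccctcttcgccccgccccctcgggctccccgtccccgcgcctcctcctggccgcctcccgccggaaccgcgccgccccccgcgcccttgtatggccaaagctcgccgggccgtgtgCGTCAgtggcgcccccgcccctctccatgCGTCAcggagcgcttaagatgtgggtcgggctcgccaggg
Dusp1: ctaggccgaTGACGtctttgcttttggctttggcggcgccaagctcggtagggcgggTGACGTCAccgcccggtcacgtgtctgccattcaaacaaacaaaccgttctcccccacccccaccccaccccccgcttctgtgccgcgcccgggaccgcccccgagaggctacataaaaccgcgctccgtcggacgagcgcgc

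Fos holds 2 such matches, beginning 129 and 66 bases before the start, and Nr4a1 holds 4. A match is a run of letters and was not tested as a binding site.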

How the data were processed

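The authors deposited whole-read counts per gene for 21 libraries. Reads of 3 sequencing runs were merged with Picard 2.7.1, aligned to mm9 with STAR 2.5.1b, and every library was re-sampled by the authors to a common number of reads, so the deposited counts need no depth correction but keep differences in library complexity. The library kit was stranded, but whether counting used strand was not stated. Counts were fitted as deposited with edgeR 4.0.16 (TMM scaling, 1 mean for each of the 4 groups, quasi-likelihood F-test, Benjamini-Hochberg adjustment over 12768 genes averaging at least 50 reads, threshold 0.15), in R 4.3.3. DESeq2 1.42.0, limma 3.58.1 (voom), other filters and scalings, and leaving out each library were alternatives. Within a group, 45 pairs of libraries had a chi-square per gene of 6.88 to 42.0, so none was a repeat of another. P-values measure the spread between pools of 2 mice. The genes and lists were chosen with earlier results of these data known. Named beside the 10 genes were up to 3 genes of each related list with the smallest unadjusted p over all 4 groups. Called genes of the marker lists (those of the hypothalamic and lateral hypothalamus lists are given) and the 8 genes most like the mean of the 9 tested were also named. So was the most abundant marker of each marker list described. Coordinates are from the NCBIM37 annotation and promoters from RefSeq GRCm38.p6. Correlations are of log2 CPM after group means were removed, and are descriptions. Tables were handled with Python 3.11.15, pandas 2.3.3 and scipy 1.17.1.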

Additional observations from a re-analysis of the deposited data

Results flagged for a closer look

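Of 40 groups of read values (10 genes in 4 groups), 2 held a library far from the rest of its group, where chance alone flags about 1 group in 20. Ier2 had 210 reads in HFD NoDS replicate 20, against 83 in the nearest library of that group. Arc had 378 reads in RC → HFD replicate 12, against 258 in the nearest. The share of low genes at 0 was 32.9% in the first library and 22.4% in the second, the highest of their groups, and its part in these values was not tested.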

How the results depend on the processing

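With DESeq2, limma-voom, other filters, scalings, dispersion and symbol sums, the compared groups alone and complexity as a covariate, 0 of the genes were called in each comparison they could be run for, and 0 to 0 with each of the 21 libraries left out. The exception was added after seeing the data: with HFD → RC replicate 17 and HFD NoDS replicate 20 left out together, 1 gene (Arc) was called for the switch. DESeq2 could call none of the genes for RC → HFD minus RC NoDS, since it gave none of them an adjusted p there. None of the fold changes given next was called.

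For HFD → RC minus RC → HFD, the log2 difference of Fos was -0.0165 with the complexity covariate and -0.00838 with both libraries left out. For HFD NoDS minus RC NoDS, the covariate gave -0.18 for Arc, -0.00468 for Nr4a1, -0.23 for Dusp1 and -0.56 for Ier2, and leaving out both libraries gave -0.0803 for Arc, -0.15 for Dusp1 and -0.12 for Ier2. The log2 fold change of Dusp1, HFD NoDS minus RC NoDS, was -0.0137 with limma-voom, -0.00225 with no filter and -0.0121 without TMM. Each of these turned the sign, and the cause was not tested.

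With single libraries left out, HFD NoDS minus RC NoDS ran from -0.46 to 0.0164 for Fosb, from -0.0798 to 0.0779 for Arc, from -0.15 to 0.10 for Dusp1 and from -0.12 to 0.59 for Ier2. HFD → RC minus RC → HFD ran from -0.0321 to 0.23 for Fos, from -0.17 to 0.0117 for Junb, from -0.12 to 0.22 for Arc, from -0.0157 to 0.20 for Dusp1 and from -0.31 to 0.17 for Ier2. Of 797 alternative values of 25 fold changes, 768 kept their sign and their side of the threshold and 28 turned.

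Counts over all genes moved more. With single libraries left out, the switch ran from 0 to 124 genes called (124 without HFD NoDS replicate 20), HFD → RC minus RC NoDS from 1 to 205, all 4 groups from 9 to 80, earlier diet from 2 to 70 and HFD → RC minus RC → HFD from 1 to 41 (each highest without HFD → RC replicate 16). HFD NoDS minus RC → HFD ran from 1 to 31, HFD → RC minus HFD NoDS from 1 to 13, HFD NoDS minus RC NoDS from 5 to 14, RC → HFD minus RC NoDS from 4 to 11 and current diet from 4 to 10. Over the alternative settings, these counts ran from 0 to 116 for the switch and from 9 to 133 over all 4 groups. They ran from 1 to 147 for HFD → RC minus RC NoDS and from 4 to 96 for RC → HFD minus RC NoDS. For HFD → RC minus HFD NoDS they ran from 1 to 44, and for HFD NoDS minus RC → HFD from 1 to 32. The ranges were 2 to 35 for earlier diet, 6 to 17 for HFD NoDS minus RC NoDS and 5 to 12 for current diet. HFD → RC minus RC → HFD ran from 0 to 5. No paired analysis was possible because the groups share no replicate numbers. Npas4, Ier2, Fosb and Egr2 had the fewest reads, which limits what could be detected for them.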
